A study of Mus musculus with 4 samples.

Results

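The regions described here are those that the authors annotated as promoter within 1 kb of a transcription start, in the 2 lists they deposited, of regions where H3K9me3 was higher or lower in knockout (KO) than in control microglia. Members were all rows of both lists whose annotation was exactly that class. They numbered 264 of 5432 listed regions, 4.86% (exact 95% interval 4.30 to 5.47), and belonged to 262 genes. Microglia, the resident macrophages of the brain, had been sorted from the telencephalon of C57BL/6 mouse embryos, labelled as embryonic day 14 and given as day 14.5 in the protocol. KO embryos lacked Arid1a in cells that express Cre under the control of Cx3cr1, a gene that other macrophages and some monocytes also express. Control embryos, labelled WT, carried floxed Arid1a alleles. H3K9me3 was profiled by CUT&Tag, in which an antibody tethers a transposase that cuts and tags the DNA nearby. There was 1 H3K9me3 library and 1 control IgG library per genotype, so no difference between genotypes has a replicate check. The lists give no value per library, the depth is unknown, and the sorted cells could not be checked against marker genes. In such bulk libraries a different makeup of the sorted cells and a change within cells cannot be told apart.

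H3K9me3 is a histone mark bound by HP1 proteins and found over satellite repeats, transposons and silenced gene clusters. At most active promoters it is absent, and where it lies over a promoter the gene is usually silent. Arid1a encodes the DNA-binding subunit of the BAF form of the SWI/SNF complex, which moves nucleosomes at promoters and enhancers. Neither Arid1a nor Cx3cr1 had a region in either list (0 regions each), so the lists offer no check of the deletion.

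Of the 264 regions, 32 covered the annotated start, and 20 of the 87 with a RefSeq promoter window covered part of it. The sequences below show promoters beneath a few such regions and do not represent the class. They come from the members with a named gene whose region covered the start and also reached bases shown here from the RefSeq promoter table (GRCm38.p6). Each runs from 120 bases before the RefSeq start to base 20 after it, read on the gene's own strand, with each CG dinucleotide in capitals because DNA methylation in mammals falls mainly on this dinucleotide. The first 3 genes were in the higher list and the last 3 in the lower list.
Il1a, chr2:129309953-129310092, minus strand: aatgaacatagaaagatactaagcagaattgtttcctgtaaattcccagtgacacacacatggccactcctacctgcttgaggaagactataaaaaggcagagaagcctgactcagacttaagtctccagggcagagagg
Slitrk6, chr14:110755130-110755269, minus strand: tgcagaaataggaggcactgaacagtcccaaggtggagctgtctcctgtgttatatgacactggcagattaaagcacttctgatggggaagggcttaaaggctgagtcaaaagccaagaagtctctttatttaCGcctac
Rpp40, chr13:35906328-35906467, minus strand: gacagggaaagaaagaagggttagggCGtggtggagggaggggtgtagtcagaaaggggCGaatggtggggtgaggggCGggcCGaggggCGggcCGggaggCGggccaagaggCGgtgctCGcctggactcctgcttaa
Meis2, chr2:116064600-116064739, minus strand: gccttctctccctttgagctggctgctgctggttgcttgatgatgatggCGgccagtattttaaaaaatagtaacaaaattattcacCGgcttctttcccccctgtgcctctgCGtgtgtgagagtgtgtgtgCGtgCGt
Defb7, chr8:19494977-19495116, plus strand: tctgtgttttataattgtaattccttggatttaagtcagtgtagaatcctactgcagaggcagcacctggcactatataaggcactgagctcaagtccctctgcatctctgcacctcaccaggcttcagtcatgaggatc
Fryl, chr5:73256599-73256738, minus strand: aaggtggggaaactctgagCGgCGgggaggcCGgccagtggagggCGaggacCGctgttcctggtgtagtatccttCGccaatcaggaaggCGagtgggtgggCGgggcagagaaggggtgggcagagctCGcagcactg

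Region positions were read on this same build, on which the annotated genes lie, although the submitters' processing notes name mm9, so the overlap with each stretch rests on that reading. Promoters with few and with many CG dinucleotides occurred in both lists. The stretch shown for Il1a held 0 CG dinucleotides, that for Slitrk6 held 1 and that for Rpp40 held 9. In the lower list, Meis2 had 5, Defb7 had 0 and Fryl had 9. The listed region covered all 140 bases shown for Il1a, Rpp40, Meis2 and Fryl, 116 of those for Slitrk6 and 100 of those for Defb7. The motif TATAAA began at position -32 of Il1a, counted from the RefSeq start. On either strand, the full windows of 250 bases before and 50 after the start held this motif for Il1a, Meis2 and Defb7, as did 13.6% of all 32851 windows in the table. A RefSeq window within 1 kb of the annotated start was found for 87 of the 264 members (33.0%). That is fewer than the 80% needed, so a comparison of base composition over the members was void and none is given.

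The members were divided between the lists in nearly the same proportion as all listed regions. Of the 264 regions, 169 were listed as higher in KO, 64.0% (57.9 to 69.8), and 95 as lower, 36.0% (30.2 to 42.1). Over all listed regions the shares were 64.2% and 35.8%. Promoter regions farther from the start gave similar values, with 144 of 226 regions higher at 1 to 2 kb (63.7%, 57.1 to 70.0) and 126 of 198 at 2 to 3 kb (63.6%, 56.5 to 70.3). Within 1 kb lay 4.85% (4.16 to 5.61) of the higher list and 4.89% (3.97 to 5.94) of the lower list. In neither direction did this class depart from the rest of the lists by more than counting error. Intervals in brackets are exact 95% intervals that cover counting error only.

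Regions did not gather over the start itself. In the higher list 70 regions lay upstream, 22 covered the start and 77 lay downstream, against 47, 10 and 38 in the lower list. Regions over the start thus made up 13.02% (8.34 to 19.04) of the higher list's members and 10.5% (5.16 to 18.5) of the lower list's. The start was covered by 22 higher regions. Other positions within 1 kb, in steps of 100 bp, were covered by between 25 (100 and 900 bp upstream) and 42 (700 bp downstream). In the lower list 10 regions covered the start. Other positions were covered by between 9 (100 bp downstream) and 21 (900 bp upstream and 800 bp downstream). Whether coverage of the start departs from an even spread was not tested. Measured from the region's nearer edge to the start, higher regions lay at a median of 428 bp (95% interval 351 to 526) and lower regions at 516 bp (419 to 625). Of regions within the first 500 bp downstream, 35 were higher and 14 lower. Of those 1 to 500 bp upstream, 37 were higher and 23 lower. Moving outward, the higher list held 169 regions within 1 kb, 144 at 1 to 2 kb and 126 at 2 to 3 kb, and the lower list held 95, 82 and 72.

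**Figure D1:**
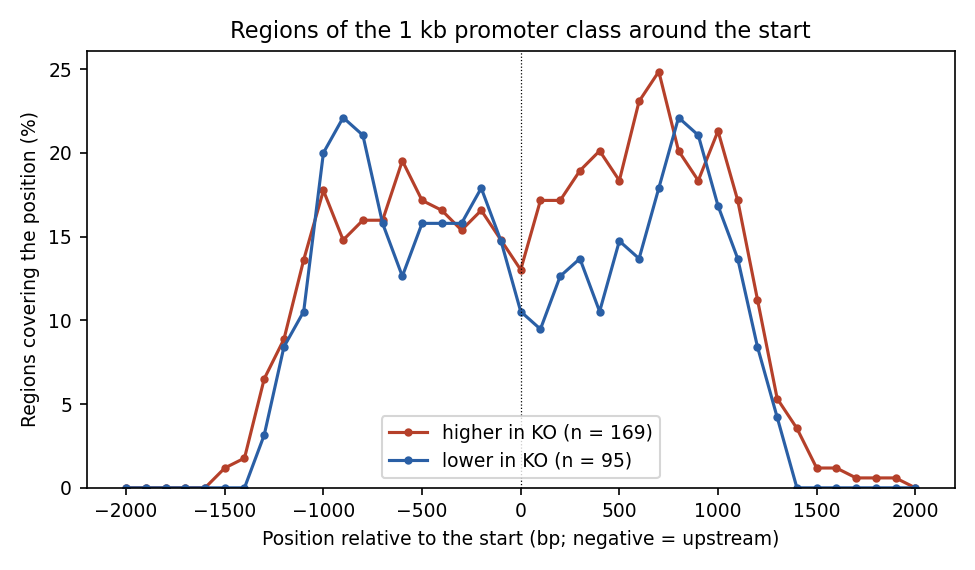
Share of the regions of the 1 kb promoter class that cover each position around the start, in steps of 100 bp (x axis, bp on the gene's strand; y axis, percent of the regions of a list), for 169 regions higher in KO (red) and 95 lower in KO (blue). Coverage at the start was 13.02% of the higher and 10.5% of the lower regions, near the low end of each line within 1 kb.

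The start used by the annotation was often not the RefSeq start of the gene. For 122 members the promoter table held a start of the same gene, and in 67 of them (54.9%, 45.7 to 63.9) it lay within 100 bp of the annotated one. Il1a and Slitrk6 used the same base, while the start of transcript Mical2-202 lay 45463 bp from the RefSeq start and that of Coil-202 lay 3683 bp away. For the last 2 genes the region therefore lay at the start of another transcript than the RefSeq one. A start of any gene in the promoter table lay within 1 kb of 85 of the 264 regions (32.2%, 26.6 to 38.2). The promoter table lacks a start for some protein-coding genes, Sik1 and Mmp9 among them, so gaps in it lower this share. There were 39 members (14.8%, 10.7 to 19.6) that lay inside the body of a different protein-coding gene in RefSeq. The region at Cpsf2, for example, lay inside Ndufb1, and the region at the RIKEN clone 9530036O11Rik inside Shh.

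By their medians, member regions were about as wide and scored about as high as the other regions of their list. Higher members had a median width of 403 bp (370 to 437), where other regions of that list had 404 bp (398 to 409). Lower members had 357 bp (336 to 381), as had other regions of their list (357 bp, 352 to 364). Regions over the start were the widest, with a median of 576 bp (424 to 750) for higher and 425 bp (310 to 667) for lower regions. A wide region is more likely to cover a given base, so this difference follows in part from how they were grouped. Each region also carries a score from the authors, on a scale the files do not define. Its median was 2.62 (2.27 to 2.82) for higher members, against 2.52 (2.52 to 2.69) for other regions. In the lower list the medians were 2.77 (2.47 to 3.13) and 2.66 (2.57 to 2.66). Scores rank regions within a list and do not measure the size of a change. Where the class made up 4.85% of the higher and 4.89% of the whole lower list, members were 7 of the top 20 higher regions and 2 of the top 20 lower ones. Among the top 100, ties included, they were 10 of 102 (9.80%) and 8 of 103 (7.77%). The 7 higher regions in the top 20 were the predicted-gene regions of the next paragraph, most of them close together on chromosome 9. They also count among the 10, so these higher-list shares rest mainly on that set.

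A few predicted genes had scores far above all other members. Among the 169 higher members, 7 regions scored above 27.5, the highest score of any region in the lower list. Whether the lists share a score scale is unknown. They lay at Gm10800 on chromosome 2 (4950, over the start), at Gm10718 (2786), Gm10722 (1272), Gm17535 (148), Gm10717 (56.9) and Gm26870 (51.7) on chromosome 9, and at Gm21738 on chromosome 14 (680, 990 bp downstream). With the second region of Gm26870, 6 higher regions lay within 37857 bp on chromosome 9. None of the 7 regions above 27.5 had a gene with a RefSeq biotype. The nearest start in the RefSeq promoter table lay between 43081 bp (Gm10800) and 198285 bp (Gm10722) away. That these are promoters thus rests on the authors' annotation alone. Leaving out these 7 regions, all of them higher, can only lower the share of higher members, which was then 63.0% (56.8 to 69.0) of 257. Below them, no member of the higher list scored above 8.93. Such scores were not confined to the class, since regions of the higher list outside it scored up to 903.

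**Figure D2:**
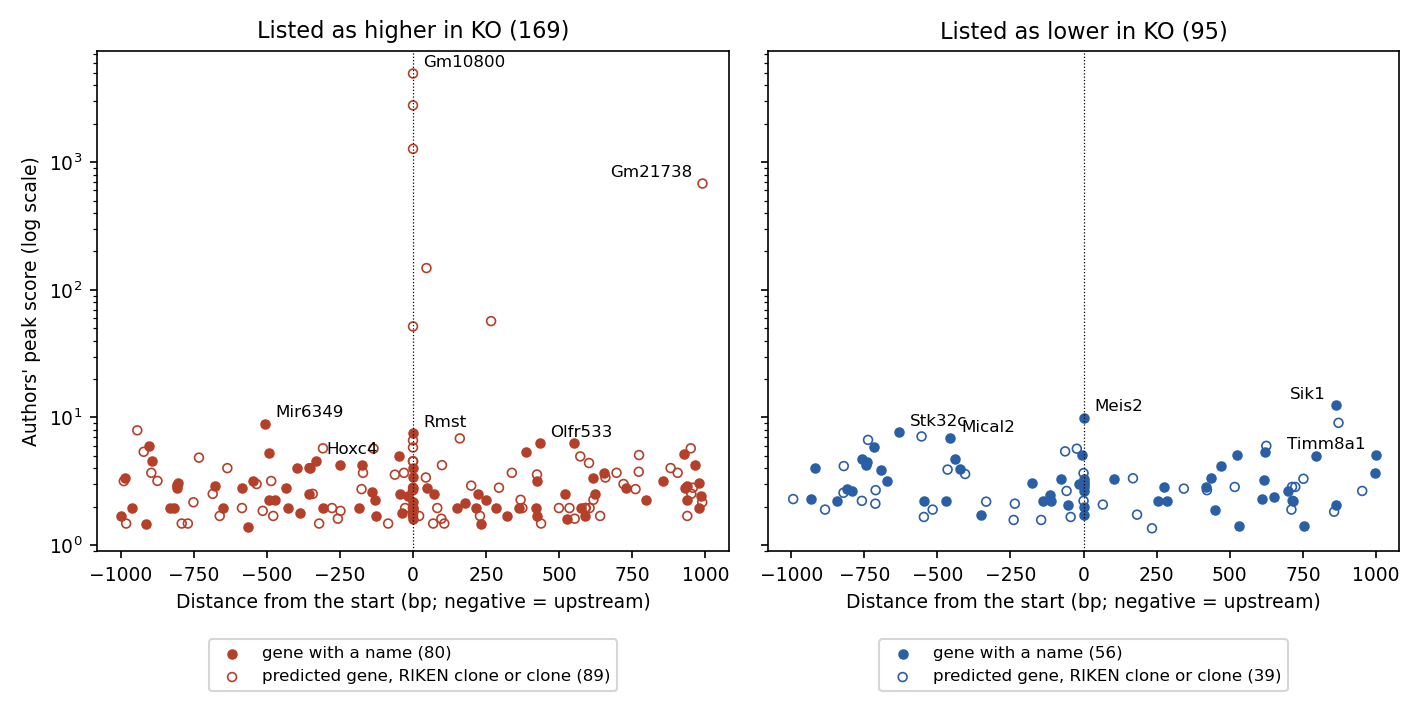
Authors' peak score (y axis, log scale) against the signed distance in bp from the start (x axis) for the 169 members higher in KO (left) and the 95 lower in KO (right). Filled points are genes with a name, microRNA genes and named pseudogenes included, and open points predicted genes, RIKEN clones or clone accessions. The points above 27.5 are all open and all in the left panel.

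Among higher members at genes with a name, the highest score was 8.93, at the microRNA gene Mir6349, 507 bp upstream on chromosome 1. The long non-coding RNA gene Rmst, whose human counterpart works with SOX2 in neurogenesis, scored 7.55 with a region of 609 bp over its start. Themis, needed for thymocyte selection, scored 6.30, and Car5b, a mitochondrial carbonic anhydrase gene on X, scored 5.97. Next came the spermatogenesis-associated gene Speer2 (5.39), Coil (5.25), which encodes the Cajal body protein coilin, and Gucy1a2 (5.21), a subunit of the nitric oxide receptor guanylate cyclase. The calcium channel regulator gene Cbarp scored 5.00, the homeobox gene Hoxc4 4.59, the mRNA processing gene Cpsf2 4.54 and the non-coding RNA gene Dalir 4.23. Cbarp and Atp5d (2.62), neighbours within 4739 bp on chromosome 10, both had a higher region just upstream of the start, at 49 and 141 bp. Besides Rmst, named genes with a higher region over the start included Olfr1057 (4.01), the pseudogene Fau-ps2 (3.40), Il1a (2.82), Rab17 (2.17), Tor1b (1.95), Slitrk6 (1.85) and Rpp40 (1.61). The widest higher members at genes with a name covered 840 bp at Pisd-ps2, 823 bp at Lhfpl3 and 814 bp at Fau-ps2.

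Among the 95 lower members, Sik1, a kinase that restrains CREB coactivators, scored highest, 12.4, with a region 862 bp inside the gene on chromosome 17. The homeobox gene Meis2, expressed in striatal and other forebrain neurons, scored 9.95, and its region covered the start. Stk32c, a kinase gene, scored 7.69 and Mical2, which encodes an actin-oxidising enzyme, 6.85. Fut7, which makes selectin ligands on white blood cells, scored 5.88, with a region 717 bp upstream. Slc9a3r2, which encodes a scaffold of membrane transporters, scored 5.32, Timm8a1, a mitochondrial import gene on X, 5.06 and Mapk8ip1, which encodes a scaffold of JNK signalling, 4.99. Besides Meis2, the named genes with a lower region over the start were Defb4 (3.31), n-R5s178 (3.13), Fxyd1 (3.00), Defb7 (2.86), Mmp9 (2.66), Vit (2.00) and Fryl (1.73). Mmp9 encodes a gelatinase that degrades matrix, and its region of 672 bp was wider than that of any other lower member with a named gene over its start. The widest lower member at a gene with a name, 799 bp, lay at Tmem184b.

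Genes with a name, microRNA genes and pseudogenes not counted, were a larger share of the class than of the other listed regions. They made up 118 of 264 members, 44.7% (38.6 to 50.9), against 36.4% (35.1 to 37.7) of other regions. In the higher list they were 40.8% (33.3 to 48.6) of members and 35.0% (33.4 to 36.6) of other regions, with overlapping intervals. In the lower list they were 51.6% (41.1 to 62.0) and 38.9% (36.7 to 41.2). Predicted genes, those with Gm numbers, made up 39.0% (33.1 to 45.2) of members and 51.0% (49.6 to 52.4) of other regions. Taken by list, predicted genes were 43.8% (36.2 to 51.6) of higher members and 51.9% (50.2 to 53.7) of other higher regions. They were 30.5% (21.5 to 40.8) of lower members and 49.3% (47.0 to 51.6) of other lower regions. Whether this gap differs between the lists was not tested. Named pseudogenes were 4.92% (2.65 to 8.27) of members and 1.68% (1.35 to 2.07) of other regions. Pseudogenes in the higher list included Ppp1r2-ps2 and the ribosomal protein pseudogene Rpl31-ps23, and those in the lower list Ceacam-ps1 and Rpl26-ps4. A RefSeq biotype was found for 202 of the 264 members (76.5%), too few for a comparison of biotypes. Of the 202, 119 were protein-coding, 69 of them higher and 50 lower, and 40 were long non-coding RNA genes, 26 higher and 14 lower.

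**Figure D3:**
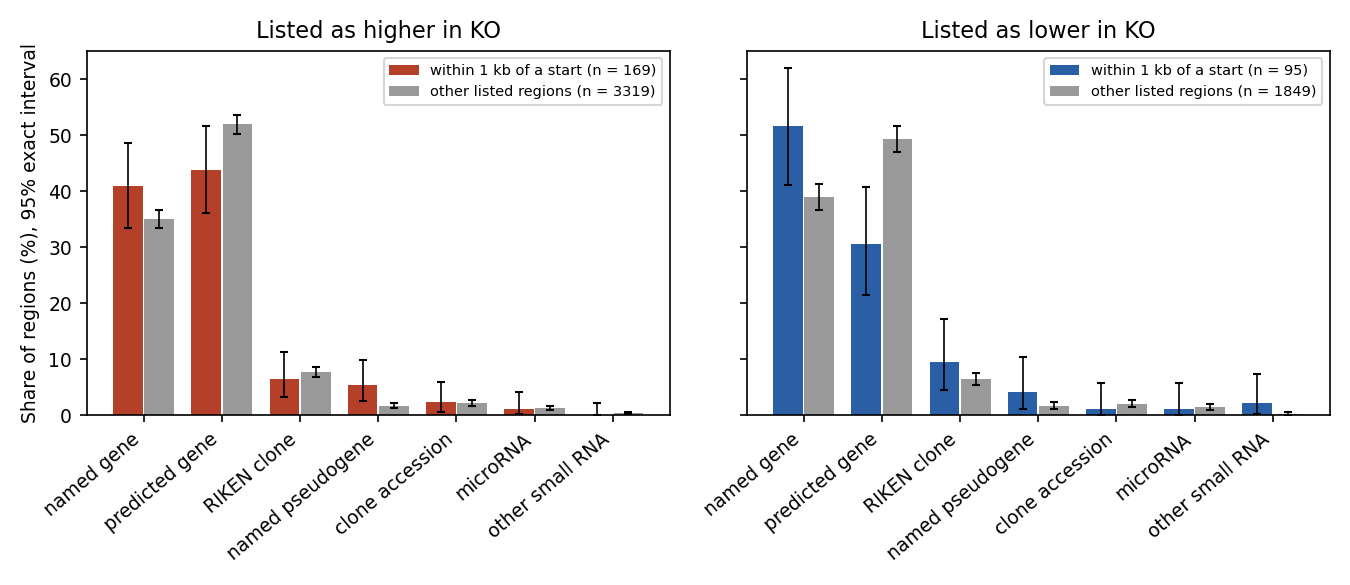
Share of regions by type of gene (y axis, percent with exact 95% intervals) for regions within 1 kb of a start (coloured) and other listed regions (grey), in the list higher in KO (left) and the list lower in KO (right). Predicted genes were 43.8% of members against 51.9% of other regions in the higher list, and 30.5% against 49.3% in the lower list.

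Olfactory and vomeronasal receptor genes, clustered families that sensory neurons of the nose express, had the most members of any family examined, 13 higher and 1 lower. The share higher was 92.9% (66.1 to 99.8), where 64.2% of all listed regions were higher. The interval counts neighbouring genes as separate. This family was picked out among 14 gene lists and 21 families chosen with earlier results known, and the difference was not tested. For regions of the same families outside the 1 kb class, 25 were higher and 16 lower, 61.0% (44.5 to 75.8). Higher members included Olfr533 (6.31), Olfr95 and Vmn1r46 (4.23 each), Olfr1057 (4.01) and Vmn1r61 (3.18). Olfr1026 and Olfr1025-ps1 lay within 6267 bp on chromosome 2. The lower region was at Olfr1183 (5.08), 6 bp upstream of the start. The class held 14 of the 55 regions of these families (25.5%, 14.7 to 39.0), and 4.86% of regions of all kinds.

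Protease inhibitor and defensin genes leaned the other way, with 1 higher and 4 lower members. The alpha-1 antitrypsin gene Serpina1a (5.06) and the antimicrobial peptide genes Defb4, Defb7 and Defb19 (2.22) were lower, and the higher one was a Kazal-type inhibitor gene. Outside the class these families had 5 higher and 5 lower regions. Genes named for kinases and phosphatases had 2 higher members, both pseudogenes, and 4 lower ones, among them Sik1, Stk32c and Mapk8ip1. Outside the class they had 26 higher and 11 lower regions. With so few members these counts describe the lists and no more.

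**Figure D4:**
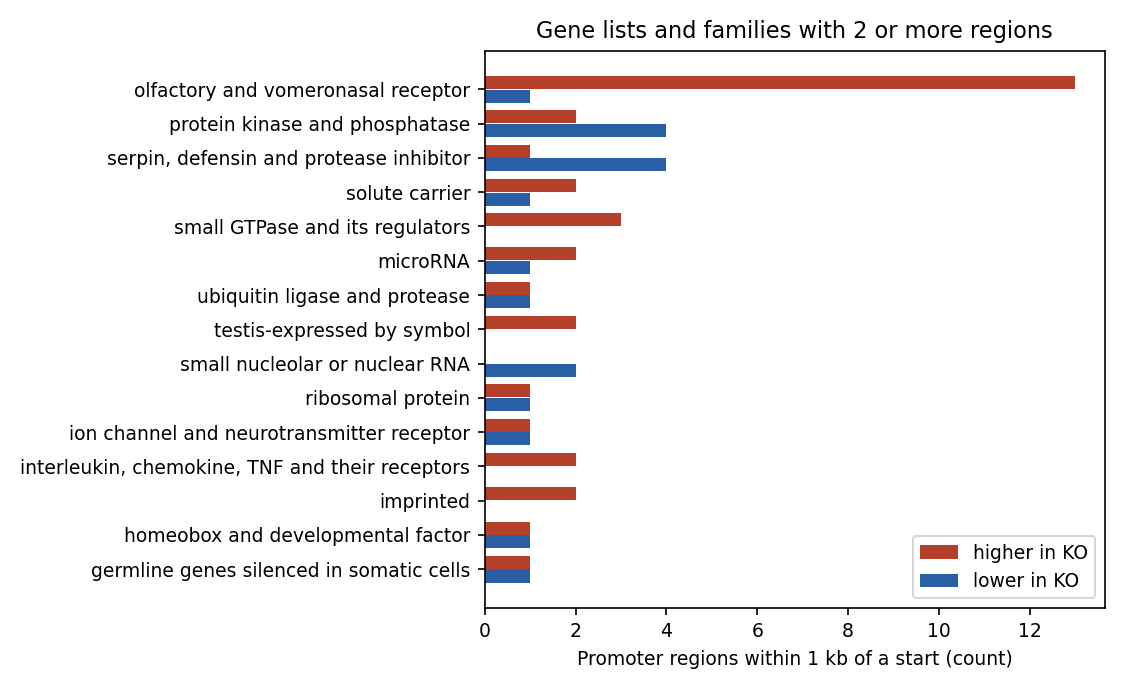
Number of promoter regions within 1 kb of a start (x axis) for the gene lists and families with at least 2 of them, higher in KO (red) and lower in KO (blue). Olfactory and vomeronasal receptors had 13 higher and 1 lower, and no other set had more than 6 in all.

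MicroRNA genes had 3 members. Those whose mature sequence is in the RefSeq table are shown with the seed, bases 2 to 8, in capitals, and no 2 of them share a seed. Mir6349 and Mir743 were in the higher list and Mir2136 in the lower list.
mmu-miR-6349, higher: uGGAAUGUgggaggggcaugcg
mmu-miR-743a-3p, higher: gAAAGACAccaagcugaguaga
mmu-miR-743a-5p, higher: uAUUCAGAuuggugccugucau
mmu-miR-2136, lower: cUGGGUGUugacugagaugug

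Mir743 lies on X and had a score of 2.82, with its region 729 bp downstream of the start. Mir2136 scored 3.31, with its region 105 bp downstream. The 5S ribosomal RNA genes n-R5s178 (3.13) and n-R5s2 (2.22) were both lower. The n-R5s178 region lay inside the gene body of Gtf2ird1.

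Lists of genes of microglia and of other cell types had few listed regions anywhere, so few members could be found whatever the share of the class, 4.86% over all regions. Homeostatic microglia genes had 0 members among 5 listed regions, those of blood myeloid cells and border macrophages 0 among 5 and lymphoid genes 0 among 4. Among the 6 regions at genes of activated microglia, Il1a, which encodes the cytokine interleukin 1 alpha, had 1 higher region, on chromosome 2 from 129309794 to 129310217 and over the start. The interferon gene Ifna6 (1.69), in the family of cytokines and their receptors, also had a higher region, 997 bp upstream. Meis2 was the member among 12 regions at genes of neural progenitors and neurons, and the embryonic globin gene Hba-x (1.90) the member among 9 at vascular, stromal and erythroid genes. Both were lower. With 0 or 1 member per list, neither a direction nor a shortage can be read for any of these cell types.

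Among regulators, the 31 SWI/SNF genes had 0 listed regions of any class. Of 45 genes of H3K9 methylation, Cbx5, which encodes the H3K9me3 reader HP1 alpha, had 1 lower region (2.08), 864 bp downstream of the start of transcript Cbx5-203. Of 69 Wnt pathway genes, Wnt5b, a non-canonical ligand, had 1 higher region (1.69), 425 bp downstream. Among imprinted genes, Slc38a4 (4.01) and Rasgrf1 (2.41), both expressed from the paternal copy in mouse, were higher. The Rasgrf1 region covered all 300 bases of its RefSeq promoter window. Of 50 germline genes that somatic cells silence, Rhox5 on X (1.95) was higher and Stra8, which starts meiosis, lower (4.05). Zfp14 (4.16), 1 of 30 regions at zinc finger genes, and the cell adhesion gene Pcdh19 (4.22) were lower. Axon guidance genes had 0 members among 13 listed regions, cell cycle and DNA repair genes 0 among 3, the keratin family 0 among 7 and histone genes 0 among 2, counts too small to set against the 4.86% of all regions. Among channels and receptors, Kcnj2 (3.19) was higher and the glutamate receptor gene Gria1 (2.08) lower. The small GTPase family held Rab17, Rasgrf1 and, by its symbol alone, Rhox5, all higher, and the respiratory chain family Atp5d, also higher.

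The other lists and families had 3 members or fewer. Among solute carriers by symbol, Slc38a4 and Slc15a5 (1.69) were higher and Slc9a3r2 lower. Homeobox and developmental factor genes, picked by symbol and so not complete, had Hoxc4 higher and Meis2 lower, against 13 higher and 17 lower regions outside the class. Ribosomal protein genes had 1 pseudogene in each list. Ubiquitin ligase and protease genes, likewise picked by symbol, had Klhl22 (1.95) higher and 1 lower member. Genes named for expression in testis had Speer2 and Rhox5, both higher. The cytochrome P450 gene Cyp2c38 (1.95) was higher. Sik1 of the immediate early and stress genes, Mmp9 of the matrix genes, Pcdh19 of the protocadherins and the adhesion receptor gene Adgrv1 (2.39) were lower.

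Some genes of members had further listed regions, in either list. Of the 262 genes, 2 had 2 members each, Gm26870 and Gm47194, all higher, and none had members in both lists. Other listed regions outside the class were found at 25 of the genes. Of these regions, 14 were in the same list as the member and 15 in the opposite list. Over all listed regions 64.2% were higher, and whether the split departs from what that share gives was not tested. Slc38a4, Snx10 and Sik1 had another region in the same direction, whereas Atp2b2, Pde1c and Prss27 had one in the opposite direction. Nfix had a lower region 15 bp upstream of a start and 2 further regions within 3 kb, 1 higher and 1 lower. Members within 100 kb of each other formed 9 groups with 22 regions, of which 6 groups were all higher, 2 all lower and 1 mixed. One of the groups was the 2 regions of Gm47194. With 64.2% of all listed regions higher, groups in a single direction are common anyway, and no link between neighbours is read from these counts.

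On X, 6 members were higher and 3 lower, 66.7% (29.9 to 92.5), against 128 of 159 other X regions higher (80.5%, 73.5 to 86.4). Car5b and Rhox5 were among the higher and Timm8a1 and Pcdh19 among the lower. Single autosomes held between 4 and 29 members. As examples, 12 of 13 were higher on chromosome 13 (92.3%, 64.0 to 99.8) and 3 of 8 on chromosome 15 (37.5%, 8.52 to 75.5). Both intervals include the 64.2% of all listed regions that were higher, and no chromosome was tested. At the edge of the class, Timm8a1 (999 bp downstream, lower) and Dgkg (998 bp, lower) were just inside, while Slc30a2 (at -1004 bp, upstream, higher, score 7.55) was just outside.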

How the data were processed

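CUT&Tag libraries were made from 100000 sorted cells with 14 PCR cycles, per the labels' protocols. Per the submitters' processing notes, mm9, FastQC, Bowtie2 2 and CASAVA 1.4 were used, with no role stated. How peaks were called, annotated and assigned to the lists, and whether IgG entered, was not given. The score that the authors deposited for each region has no defined scale. Positions, widths and distances in bp are the authors', per the file headers.

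The distance was recomputed from the row's own positions and matched in 264 of 264 members. Coordinates were read as GRCm38, since the row's transcript overlapped the RefSeq gene of that name for 200 of 202 matched symbols. The check covers the annotated genes and not the build on which regions were called. In 1 member the symbol, stored as a date, came from the transcript name.

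With 1 library per genotype no test was made. Counts have exact Clopper-Pearson 95% intervals, in Python 3.11.15 with scipy 1.17.1 and pandas 2.3.3; the functions were tested on simulated data. The members, the 14 gene lists and the 21 families were chosen with earlier results of these data known. Named genes were the 12 highest scores, the 8 highest over the start and the 3 widest per list, up to 6 per gene set, and genes with 2 or more members, except that not all that the rule selects are named. Other genes given as examples were chosen after their values were seen.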

Additional observations from a re-analysis of the deposited data

How the results depend on the processing

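For 12 results 50 alternative values were computed, of which 7 could not move because the setting left the regions counted as they were. Of the other 43, 38 stayed inside the 95% interval of the reported value. The share of members listed as higher ranged with the setting, from 58.8% for genes with a name (microRNA genes and pseudogenes included) to 68.8% for regions over the start, and was 61.1% when the nearest start was taken from the RefSeq promoter table. With genes that have a name alone, the class was 5.93% of the higher list and 6.68% of the lower one. With a limit of 500 bp in place of 1 kb, regions over the start made up 23.4% of higher and 21.3% of lower members, as fewer distant regions were counted, and the median width of the lower list was 384 bp. Leaving out regions that score above every lower region was chosen after seeing the data, and it can remove higher regions only. The planned comparison of sequence windows was not run, since no genome was used and too few members had a promoter window. No paired analysis was possible because each group held 1 library and no result comes from a test. Depth is unknown, so no limit of detection can be given.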

Other observations

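Immune genes outside the gene lists, picked after their values were seen, also had regions in this class. In the higher list were the leukotriene receptor gene Ltb4r2 (2.82, 433 bp upstream), the mast cell receptor gene Milr1 (2.53, 43 bp upstream), the antigen-presenting gene Mr1 (2.41) and the eosinophil ribonuclease gene Ear10 (2.82). In the lower list was Clec5a (2.22), which encodes a myeloid lectin receptor. Genes of growth and development were likewise in both lists, with the BMP receptor gene Bmpr1a (3.06) and Lin28b (1.95), an inhibitor of let-7 microRNAs, higher, and Nfix (2.99), Gatad2b (3.21) and the mitotic gene Cdc20 (3.92) lower. These genes were not chosen by a rule, and no direction is read from them.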
